A study of Mus musculus with 12 samples.

Results

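The genes described are 8 genes tied to the transcriptional coactivator YAP: the coactivator gene Yap1, its DNA-binding partner Tead1, and the genes Cyr61, Ctgf, Ankrd1, Amotl2, Ajuba and Axl. They were chosen by symbol in both RNA-seq tables and make up 8 of 21938 protein-coding genes with coordinates, and 54 of 137767 transcripts. All ChIP-seq peaks that touched a gene body, 10 kb upstream of it or 5 kb downstream of it were collected in mm10, which gave 159 peaks in 7 lists. The annotation used for coordinates and RefSeq call Cyr61 Ccn1 and Ctgf Ccn2, and these were matched by gene identifier.

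The study compared mouse embryonic stem cells of the line E14TG2a (mESCs) with NIH3T3 cells, an embryonic fibroblast line, both grown in a serum medium that also held LIF, the cytokine that keeps mESCs undifferentiated. Ctr9, a core subunit of the RNA polymerase II associated factor 1 complex (Paf1C), carried GFP at its C terminus through a CRISPR knock-in in each line, and was precipitated with an anti-GFP antibody from sorted pools of GFP-positive cells rather than single clones. Acetylation of histone H3 at lysine 27 (H3K27ac), a mark of active promoters and enhancers, was mapped in both lines. GFP-tagged NELFA, a subunit of the pausing factor NELF, was mapped in mESCs. RNA polymerase II phosphorylated at serine 5 (RNAPII Ser5p) or at serine 2 (RNAPII Ser2p) of its tail was mapped in mESCs as well. The study's results place the Ser5p mapping in the NELFA-tagged cells, and in a later passage name mESCs only. RNA-seq was made in both lines, and the labels name no tag for these cells. Each cell type and assay had 1 library, so no difference below has a replicate check and no test was made.

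YAP is the effector of the Hippo pathway, a kinase cascade that responds to cell contact, cell shape and tension. Active LATS kinases phosphorylate YAP and hold it in the cytoplasm, and unphosphorylated YAP enters the nucleus and binds DNA through TEAD proteins. Cyr61, Ctgf and Ankrd1 are the targets most often read as a sign of YAP activity, and AMOTL2 and AJUBA act back on the pathway themselves. Fibroblasts spread on a stiff dish are known for high YAP activity.

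The RNA-seq libraries held 26400407 estimated counts in mESCs and 28849497 in NIH3T3 cells, and the depth behind the peaks is unknown. All 6 mESC markers checked were at 211 to 1402 TPM, a transcript abundance scaled for length and library size, in mESCs and at most 0.511 TPM in NIH3T3 cells, with 5 of 6 at 0. All 6 fibroblast markers were at 39.6 to 1829 TPM in NIH3T3 cells, and in mESCs they ran from 0.132 to 162 TPM. Among markers of other cell types, those of trophoblast, macrophage, primitive endoderm and endothelium summed to 7.81, 0.0180, 3.19 and 18.5 TPM in mESCs, and to 0.0447, 2.40, 28.5 and 8.88 TPM in NIH3T3 cells. The larger sum of each type came mostly from a single gene. These were Tfap2c at 6.33 TPM and Pecam1 at 17.7 TPM in mESCs, and Csf1r at 2.37 TPM and Dab2 at 24.2 TPM in NIH3T3 cells. The other primitive endoderm markers Sox17, Gata6 and Gata4 were at 0, 1.51 and 2.85 TPM in NIH3T3 cells. The other endothelial markers, Kdr and Cdh5, were below 1 TPM in both cell types. The part of cells of these other types in the results below was not tested.

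The promoter sequences of the members are shown first, because all 6 with an entry in the RefSeq promoter table (Cyr61, Ankrd1, Amotl2, Ajuba, Axl and Yap1) held the word GGAATG, the core of the TEAD recognition sequence, on one strand or the other. The window ran from 250 bases before the RefSeq gene start to 50 after it, and 14.7% of all 32851 promoters in the table held the word. Ctgf and Tead1 had no entry. The 250 bases upstream of 4 starts follow, 5′ to 3′ on the strand of the gene, from RefSeq GRCm38.p6, with GGAATG or its reverse complement in capitals. They lie at chr3:145649986-145650235 for Cyr61, chr14:54577662-54577911 for Ajuba, chr7:25788734-25788983 for Axl and chr9:8004597-8004846 for Yap1, all on the minus strand.
Cyr61: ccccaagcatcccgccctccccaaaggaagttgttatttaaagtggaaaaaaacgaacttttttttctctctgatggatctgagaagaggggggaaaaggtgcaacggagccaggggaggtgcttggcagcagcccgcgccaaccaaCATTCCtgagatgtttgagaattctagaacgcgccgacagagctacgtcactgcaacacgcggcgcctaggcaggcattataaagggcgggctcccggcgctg
Ajuba: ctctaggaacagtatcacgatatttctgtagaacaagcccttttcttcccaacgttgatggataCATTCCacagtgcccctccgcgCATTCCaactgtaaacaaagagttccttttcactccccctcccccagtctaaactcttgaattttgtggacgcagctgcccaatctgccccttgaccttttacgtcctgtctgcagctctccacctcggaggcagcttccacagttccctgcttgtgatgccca
Axl: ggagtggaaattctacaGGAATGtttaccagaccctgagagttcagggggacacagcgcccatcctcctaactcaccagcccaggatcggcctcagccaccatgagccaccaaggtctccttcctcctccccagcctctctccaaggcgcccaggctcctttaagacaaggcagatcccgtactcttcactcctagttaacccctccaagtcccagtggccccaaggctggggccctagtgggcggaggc
Yap1: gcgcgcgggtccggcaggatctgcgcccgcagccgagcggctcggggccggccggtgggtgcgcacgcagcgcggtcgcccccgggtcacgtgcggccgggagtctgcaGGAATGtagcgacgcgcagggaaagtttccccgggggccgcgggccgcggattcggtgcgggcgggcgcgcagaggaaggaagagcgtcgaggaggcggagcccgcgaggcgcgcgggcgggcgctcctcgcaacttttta
For Ankrd1 and Amotl2, whose windows lie inside the annotated gene, only 30 bases around each word are given. They lie at chr19:36120037-36120066 and chr19:36119950-36119979 on the minus strand for Ankrd1 and at chr9:102717727-102717756 on the plus strand for Amotl2.
Ankrd1: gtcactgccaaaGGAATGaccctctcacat
Ankrd1: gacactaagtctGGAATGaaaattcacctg
Amotl2: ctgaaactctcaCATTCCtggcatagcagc

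The first base of the word lay 103 bases upstream of the RefSeq start of Cyr61, 210 and 123 bases upstream at Ankrd1, 65 at Amotl2, 186 and 164 at Ajuba, 233 at Axl and 141 at Yap1. Of these 8 words, 7 lay inside at least 1 peak, and 17.9% of the 4956 such words in all promoters of the table did. That background also holds promoters of genes with little or no RNA, and the count was not matched on RNA level. Both words of Ankrd1 lay in the same peak, as did both words of Ajuba, so the words are not independent. Those of Ankrd1, Amotl2, Ajuba and Yap1 lay in an H3K27ac peak of NIH3T3 cells, as 13.8% of all did, and those of Cyr61 and Amotl2 in a Ctr9 peak of NIH3T3 cells, as 2.32% of all did. The word of Amotl2 also lay in a NELFA and a RNAPII Ser5p peak of mESCs, and that of Axl lay in no peak. The word TATAAA, the TATA box, was found 25 bases upstream of Cyr61 alone among the 6 genes, and 13.6% of all promoters held it. Neither the AP-1 word TGANTCA nor the SRF CArG box was found in the 6 windows, against 7.81% and 1.63% of all promoters. Both strands were searched for each motif. A match describes these letters only.

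In RNA, 4 of the 8 genes were at least 2-fold higher in NIH3T3 cells, namely Axl, Ankrd1, Cyr61 and Amotl2, and 20.0% of the 12379 protein-coding genes tested were so. Ajuba alone was at least 2-fold higher in mESCs, where 23.8% of all genes were so. Ctgf, Tead1 and Yap1 lay within 2-fold. The level of a gene was the TPM of its highest transcript, and ratios were taken on TPM + 1, which understates the change of low genes. The median log2 ratio of NIH3T3 cells over mESCs was 0.92 for the 8 genes and -0.13 for all genes tested. In bulk RNA, fewer cells of a type and less RNA per cell cannot be told apart.

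**Figure D1:**
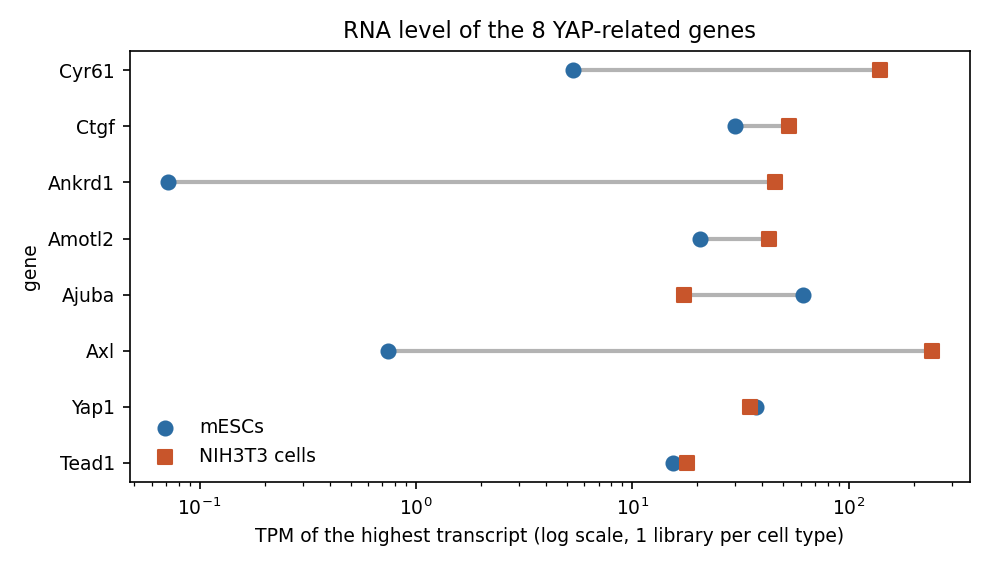
TPM of the highest transcript of each gene on a log axis, in mESCs (circles) and NIH3T3 cells (squares), 1 library each, joined by a line. The pairs of Axl, Ankrd1 and Cyr61 lie far apart, those of Yap1 and Tead1 lie close together, and Ajuba alone is clearly higher in mESCs.

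Yap1, the coactivator, was near the same level in both cell types. It was at 37.2 TPM in mESCs and 35.0 TPM in NIH3T3 cells. Summed over its transcripts, 5306 and 4793 reads were assigned to it, and the ratio of reads scaled to the library totals, NIH3T3 cells over mESCs, was 0.827 (95% exact interval 0.795 to 0.860, covering counting error only, as for all intervals here). In both cell types Yap1-202 and Yap1-201 were its 2 leading transcripts, together with nearly all of its TPM.

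Tead1 was at 15.5 TPM in mESCs and 17.9 TPM in NIH3T3 cells by its highest transcript, Tead1-202 in both. Its reads, summed over transcripts, numbered 3490 and 6796, a ratio of 1.78 (1.71 to 1.86), so the summed reads differed more than the highest transcript did. Transcripts that begin within 1 kb of the gene start took 9.03% of Tead1 reads in mESCs (8.10 to 10.0%, exact Clopper-Pearson) and 41.0% in NIH3T3 cells (39.8 to 42.2%). Those that begin between 80 and 81 kb inside the gene took 88.3% (87.2 to 89.3%) and 58.7% (57.5 to 59.9%). Transcripts annotated from the internal start were thus assigned most Tead1 reads in both cell types. Those annotated from the gene start were assigned a higher share in NIH3T3 cells. Transcript starts were not mapped, so the use of either start was not tested. kallisto splits shared reads between these transcripts by estimate, which the intervals do not cover.

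**Figure D2:**
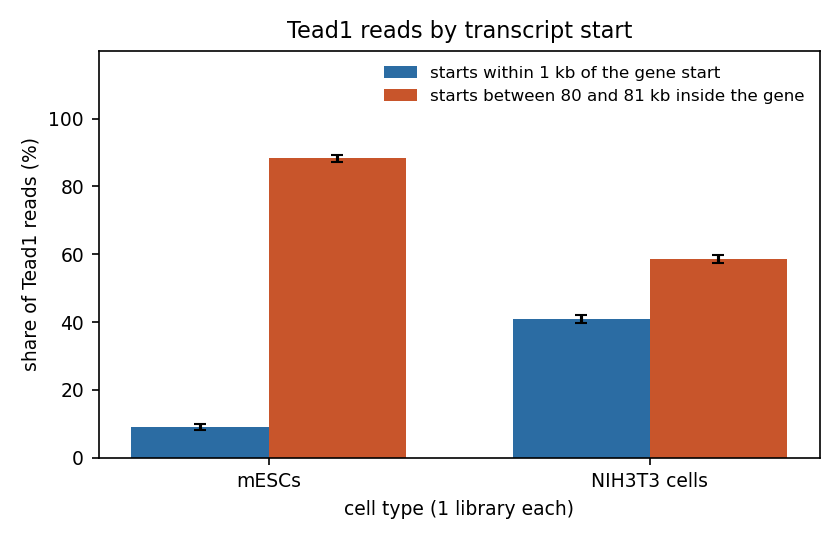
Share of Tead1 reads, in percent, assigned to transcripts that begin within 1 kb of the gene start and to those that begin between 80 and 81 kb inside the gene, in 1 library of each cell type. Error bars are 95% exact binomial intervals of the counts, and the share of the gene start is 9.03% in mESCs and 41.0% in NIH3T3 cells.

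The secreted CCN matrix proteins CYR61 and CTGF, which bind integrins, differed in how far their RNAs were apart. Cyr61 was at 5.32 TPM in mESCs and 139 TPM in NIH3T3 cells, with 203 and 5713 reads and a read ratio of 25.8 (22.4 to 29.8). Ctgf was at 30.0 and 53.2 TPM, with 1487 and 2695 reads and a read ratio of 1.66 (1.56 to 1.77). Ctgf was thus the higher of the pair in mESCs, and Cyr61 the higher in NIH3T3 cells, on the TPM scale, which is per length.

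Ankrd1 encodes a nuclear and sarcomeric ankyrin-repeat protein of muscle. It was at 0.0713 TPM in mESCs, which is 2 reads, and at 45.9 TPM in NIH3T3 cells, which is 1398 reads. The read ratio was 639.7, and with so few reads in mESCs its interval ran from 177 to 5287.

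The scaffold genes moved in opposite directions. Amotl2, whose angiomotin-family protein binds YAP and holds it at junctions, was at 20.6 TPM in mESCs and 43.0 TPM in NIH3T3 cells, a log2 ratio of 1.03 that lies just past the 2-fold line. Its 2839 and 7498 reads gave a ratio of 2.42 (2.31 to 2.52). Ajuba, whose LIM protein binds LATS kinases and inhibits them, was at 61.7 TPM in mESCs and 17.3 TPM in NIH3T3 cells. Its 6154 and 1898 reads made it 3.54-fold higher in mESCs (3.36 to 3.73).

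Axl, a receptor tyrosine kinase for GAS6, had the highest level of the 8 genes in NIH3T3 cells, 242 TPM, and 326 protein-coding genes were higher there. In mESCs its highest transcript was Axl-206, a retained intron, at 0.742 TPM, and its coding transcripts Axl-202 and Axl-201 were at 0.442 and 0.339 TPM. In NIH3T3 cells Axl-201 led. The reads numbered 78 and 26516, a ratio of 311 (249 to 394).

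The rest of the pathway was counted over lists of Hippo and YAP genes, chosen with earlier results of these data known. Of 22 upstream kinase and scaffold genes tested, 12 were at least 2-fold higher in NIH3T3 cells and 2 in mESCs, with a median log2 ratio of 1.18. The LATS kinase genes were among the 12, Lats1 with 5.11 TPM in mESCs and 30.3 TPM in NIH3T3 cells and Lats2 with 1.34 and 13.3 TPM, as were Amotl1, Frmd6, Ptpn14, Sav1, Mob1b, Limd1, Mob1a and Rassf1. The 2 genes higher in mESCs were Nf2, the gene of the Merlin scaffold, at 89.4 and 21.5 TPM, and Stk4, which encodes the MST1 kinase, at 26.996 and 11.5 TPM. The same background shares of 20.0% and 23.8% hold for these counts and those of the next lists.

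Of 8 coactivator and DNA-binding partner genes tested, 7 were higher in NIH3T3 cells and 1 in mESCs. Wwtr1, which encodes the YAP relative TAZ, was at 20.7 and 43.6 TPM. Among the other TEAD genes, Tead2 was at 27.6 TPM in mESCs and 64.8 TPM in NIH3T3 cells and Tead3 at 2.70 and 13.5 TPM, whereas Tead4 was at 20.7 and 7.71 TPM. Runx1, Runx2, Vgll3 and Vgll4 were also higher in NIH3T3 cells. With Tead1, the 4 TEAD genes thus showed 2 higher in NIH3T3 cells, 1 higher in mESCs and 1 within 2-fold.

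Of 20 other genes commonly given as YAP targets, 15 were higher in NIH3T3 cells and 3 in mESCs, with a median log2 ratio of 2.29. Thbs1, the gene of the matrix protein thrombospondin-1, was at 0.201 and 275 TPM. Foxf2, Crim1, Tagln, F3, Lats2, Asap1, Fstl1, Ptpn14 and Myof were also among the 15, and Ccdc80 had 0 reads in mESCs and 2884 in NIH3T3 cells. The 3 higher in mESCs, named after their values were seen, were Gadd45a at 41.2 and 11.1 TPM, Dock5 at 21.0 and 8.33 TPM and Igfbp3 at 2.58 and 0 TPM. Lats2 and Ptpn14 stand in both the first and the third list.

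**Figure D3:**
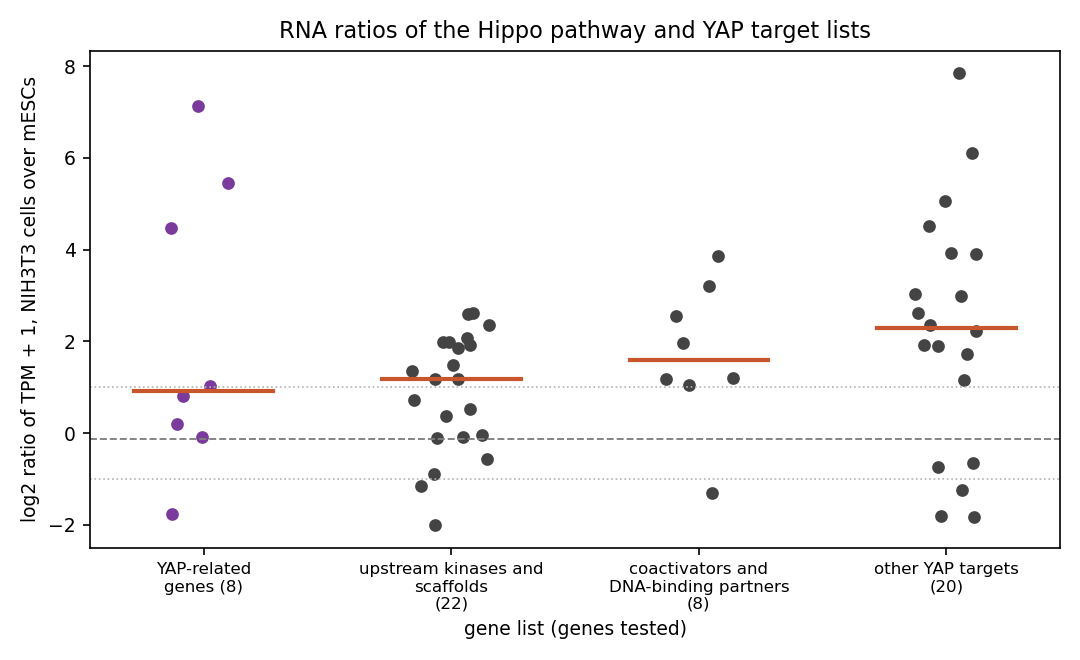
Log2 ratio of TPM + 1, NIH3T3 cells over mESCs, for the 8 genes and for the tested genes of each pathway list (each point is 1 gene, spread sideways for sight; thick lines are medians). The dashed line is the median of all tested genes, -0.13, the dotted lines mark 2-fold, and the list medians are 0.92, 1.18, 1.59 and 2.29 from left to right.

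All 8 genes had a Ctr9 peak in NIH3T3 cells, where 28.2% of all protein-coding genes had one over the same kind of region. In mESCs 7 of 8 had one, against 47.2% of all genes, and Cyr61 had none. H3K27ac peaks were found at all 8 genes in NIH3T3 cells, against 57.5% of all genes, and at 6 in mESCs, against 46.5%, with Cyr61 and Ankrd1 lacking them. The regions of the 8 genes ran from 18.006 to 242 kb, and the median over all genes was 32.4 kb. Of genes with at least 10 TPM in the same cells, 59.2% had a Ctr9 peak in NIH3T3 cells and 88.7% in mESCs, and 97.5% and 88.4% had an H3K27ac peak. The Ctr9 list held 44748 peaks in mESCs and 22016 in NIH3T3 cells, and the H3K27ac lists held 19417 and 34241. The part of list size in differences of peak number or peak coverage between the cell types was not tested.

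In mESCs, NELFA peaks lay at 3 of the 8 genes (Ctgf, Amotl2 and Ajuba), against 11.7% of all genes, and RNAPII Ser5p peaks at these 3 and Axl, against 14.3%. RNAPII Ser2p peaks lay at none, against 8.19% of all genes, in a list of 1675 peaks. Of genes with at least 10 TPM in mESCs, 26.8% had a NELFA peak, 32.6% a RNAPII Ser5p peak and 18.1% a RNAPII Ser2p peak. Cyr61 was the only one of the 8 genes with no peak of any of the 5 lists of mESCs.

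**Figure D4:**
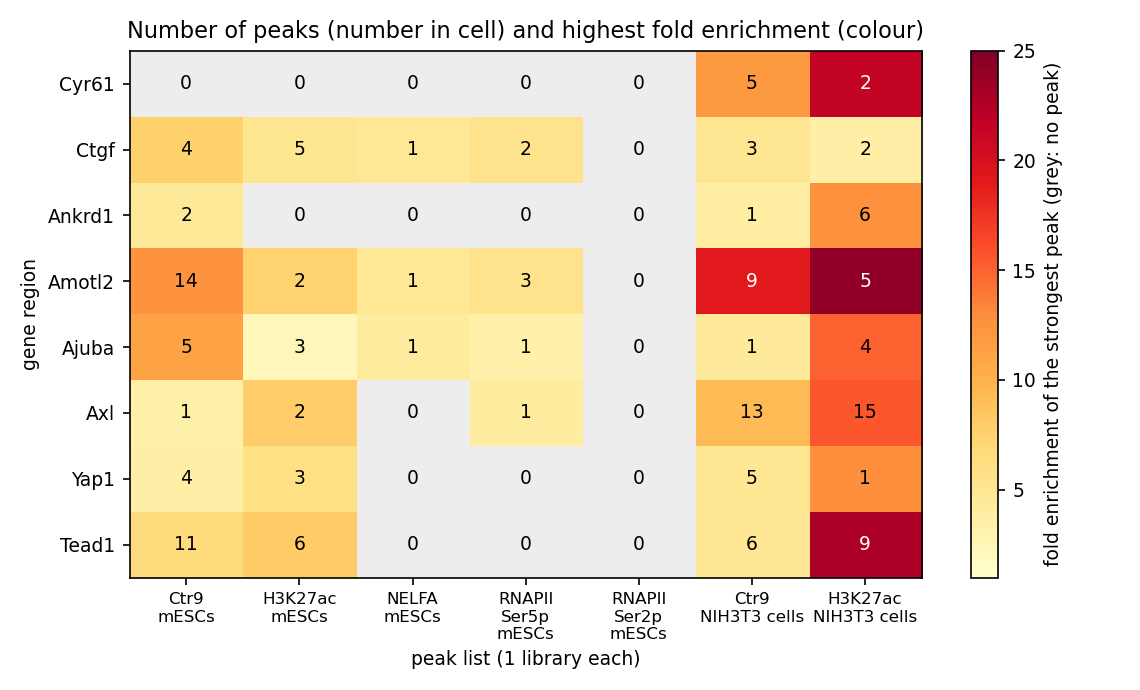
Number of peaks (written in each cell) and fold enrichment of the strongest peak (colour, grey where there was no peak) for the 8 gene regions in the 7 peak lists, 1 library each. Cyr61 has no peak in mESCs and 5 Ctr9 peaks in NIH3T3 cells, and the strongest peaks are those of H3K27ac in NIH3T3 cells at Amotl2, Tead1 and Cyr61.

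Summits of H3K27ac lay within 1 kb of the gene start at 7 of 8 genes in NIH3T3 cells, against 43.8% of all genes, and at 4 of 8 in mESCs (Ctgf, Ajuba, Yap1 and Tead1), against 31.9%. Ctr9 summits were rare there, with 1 gene in each cell type, Ctgf in mESCs, against 10.8% of all genes, and Yap1 in NIH3T3 cells, against 10.7%. NELFA summits lay within 1 kb of the starts of Ctgf and Ajuba, and those of RNAPII Ser5p of Ctgf alone, each against 7.96% of all genes. RNAPII Ser2p had none, against 1.58%. The start of Amotl2 in RefSeq lies 1132 bps inside the annotated gene start, and with RefSeq starts, an alternative added once these values were known, Amotl2 joined the genes with a near summit in every list with a peak there.

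The strongest Ctr9 summits of mESCs lay past the 3′ end. This held for 7 of the 7 genes with a Ctr9 peak, against 50.5% of all genes with one. Ankrd1 and Axl are among the 7 and had no Ctr9 peak over the gene body in mESCs, so a place past the end was the only one found for them, and the Axl peak lay 393 bps inside the neighbouring gene Hnrnpul1. The other 5 genes had Ctr9 peaks in the body as well. In NIH3T3 cells it held for 4 of 8 genes (Ankrd1, Ajuba, Axl and Yap1), against 37.7%. Of the 41 Ctr9 summits of mESCs at the 8 genes, 31 lay in gene bodies, 11 of them in exons and 20 in introns, and of the 43 in NIH3T3 cells 27 lay in gene bodies, 10 in exons and 17 in introns.

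The matrix protein genes differed in mESCs. At Cyr61 (chr3:145646976-145649981, minus strand), NIH3T3 cells had a single Ctr9 peak of 4.42 kb that covered 100% of the gene body, with a fold enrichment of 12.05 and its summit in an exon 2.46 kb inside the gene. Its fold enrichment stood at percentile 98.9 of all Ctr9 peaks of NIH3T3 cells. An H3K27ac peak summited 219 bps inside Cyr61 with a fold enrichment of 20.9, and another, 3.93 kb wide, summited 3.71 kb upstream with 21.4. Weaker Ctr9 peaks lay 2.43, 2.93, 3.62 and 4.58 kb upstream, at 3.37 to 4.90-fold. These upstream peaks lie in the body of Gm17501, a long noncoding RNA gene on the other strand that begins 331 bps before Cyr61.

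At Ctgf (chr10:24595442-24598683, plus strand), mESCs had 4 Ctr9 and 5 H3K27ac peaks and NIH3T3 cells 3 and 2. NELFA and RNAPII Ser5p were mapped in mESCs alone. NELFA summited 241 bps and RNAPII Ser5p 169 bps inside the gene, at 4.78 and 5.49-fold, and the first Ctr9 summit lay at 546 bps, at 6.03-fold. Ctr9 peaks covered 86.6% of the gene body in mESCs and 39.1% in NIH3T3 cells, and the strongest, 303 bps past the gene end, reached 7.59-fold in mESCs, against at most 4.98-fold in NIH3T3 cells. The H3K27ac peak at the start was at 3.32-fold in mESCs and 3.62-fold in NIH3T3 cells. Fold enrichments are relative to the background of each library and cannot be compared between libraries as amounts, so the order of cells here is a description.

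Ankrd1 (chr19:36111961-36120099, minus strand) had 6 H3K27ac peaks in NIH3T3 cells, the strongest 9.09 kb upstream at 12.7-fold and the next 2.12 kb inside the gene at 11.0-fold, and none in mESCs. Its Ctr9 peaks touched no part of the gene body in either cell type. In mESCs they summited 3.75 and 4.67 kb past the gene end, at 3.88 and 4.55-fold, and in NIH3T3 cells 3.87 kb past it, at 3.72-fold. Ctr9 peaks were therefore found in the flank of Ankrd1 where it had 2 reads.

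At Amotl2 (chr9:102716672-102733418, plus strand) both cell types had Ctr9 along the gene, with 14 peaks in mESCs and 9 in NIH3T3 cells that covered 52.6% and 82.0% of the gene body. In mESCs the strongest lay at the 3′ side, 443 bps past the gene end, at 12.5-fold, and the first, 1.99 kb inside the gene, was at 5.80-fold. In NIH3T3 cells the order was the other way round, with 19.04-fold at 1.88 kb inside the gene, a peak of 4.24 kb, and 8.74-fold 435 bps past the end. The former stood at percentile 99.8 of all Ctr9 peaks of NIH3T3 cells. NELFA and RNAPII Ser5p of mESCs summited 34 and 40 bps after the RefSeq start of Amotl2, on the 3′ side of the TEAD word shown above, and H3K27ac 198 bps after it in mESCs, at 7.51-fold, and 187 bps after it in NIH3T3 cells, at 24.1-fold.

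Ajuba (chr14:54567472-54577558, minus strand) carried Ctr9 along 85.3% of its gene body in mESCs and along none of it in NIH3T3 cells. The strongest Ctr9 peak of mESCs was 5.78 kb wide, summited 2.14 kb past the gene end and reached 11.3-fold. In NIH3T3 cells a single Ctr9 peak of 283 bps lay 2.59 kb past the end, at 4.38-fold. H3K27ac at Ajuba ranked higher within its list in NIH3T3 cells, with a 15.0-fold peak at the start at percentile 83.1. In mESCs, where the RNA was higher, 3 peaks reached at most 2.23-fold, at percentile 1.32 of their list. NELFA summited 7 bps inside Ajuba.

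Axl (chr7:25757273-25788705, minus strand) had 13 Ctr9 and 15 H3K27ac peaks in NIH3T3 cells. Within the gene body the 2 marks lay in different parts. There 10 H3K27ac summits lay from 213 bps to 8.13 kb inside the gene, the strongest at 7.01 kb with 15.6-fold. The 11 Ctr9 summits of the gene body lay from 12.7 to 30.3 kb. Past the end the marks overlapped. The strongest Ctr9 peak, 9.42-fold, summited 1.24 kb past it, and H3K27ac summited 1.335 and 2.19 kb past it, at 13.2 and 15.1-fold. All 4 summits of mESCs at Axl, of Ctr9, H3K27ac and RNAPII Ser5p, lay 2.12 to 2.91 kb past its end, at the start of the neighbouring gene Hnrnpul1, which was at 69.8 TPM in mESCs and 57.4 TPM in NIH3T3 cells. Without the downstream flank, Axl had no peak in mESCs. The peaks past the Axl end in NIH3T3 cells lie at the same neighbour, and the part of each gene in them cannot be told apart.

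**Figure D5:**
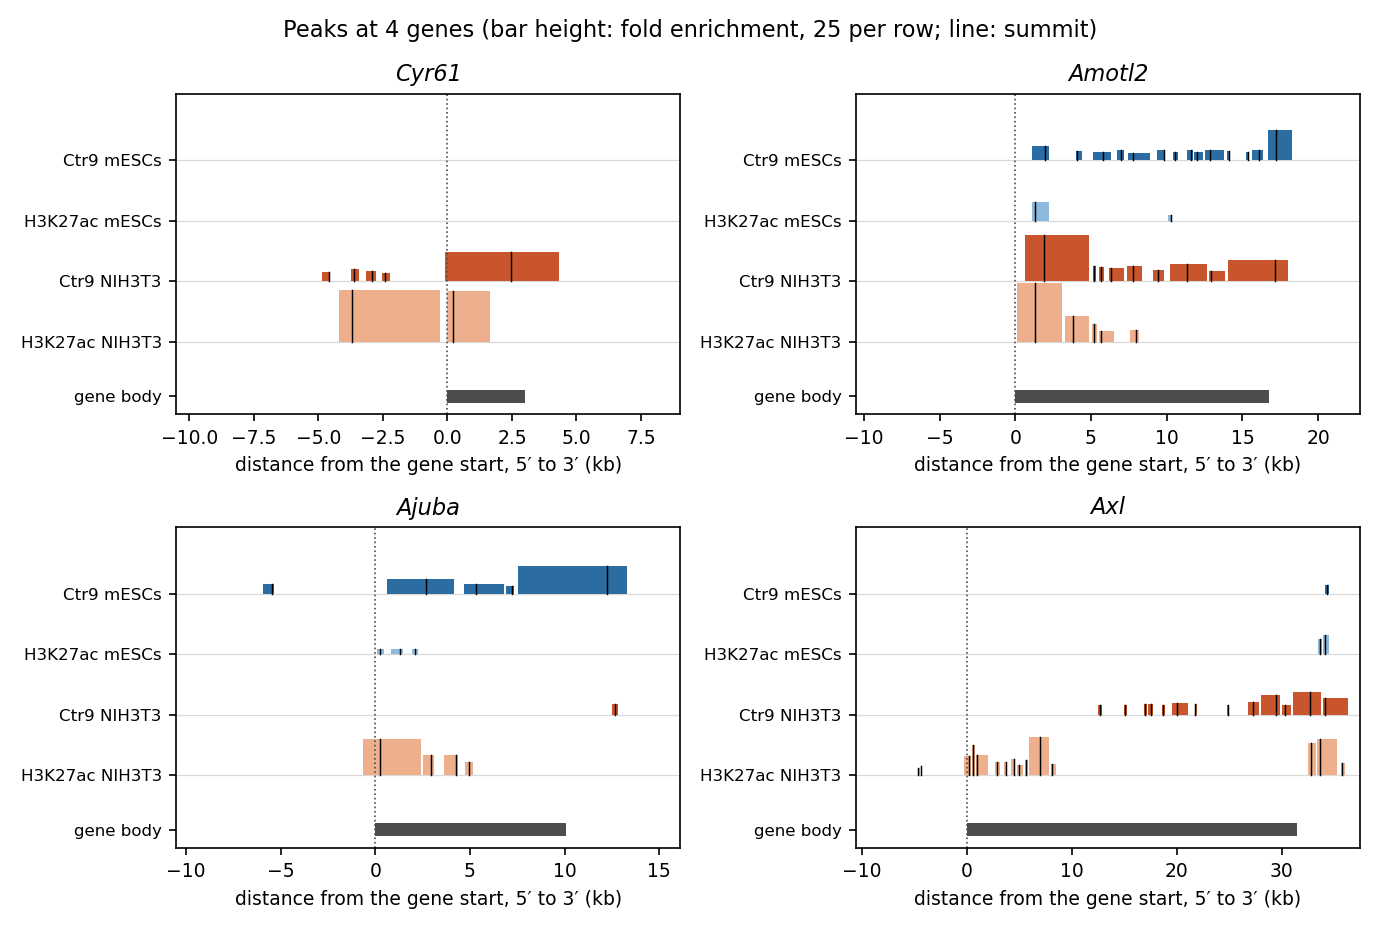
Peaks of Ctr9 and H3K27ac in mESCs and NIH3T3 cells at Cyr61, Amotl2, Ajuba and Axl, drawn to scale by distance from the gene start in kb, with the gene body as a dark bar. Bar height is fold enrichment and the thin line is the summit. A Ctr9 peak spans the whole Cyr61 gene body in NIH3T3 cells. The strongest Ctr9 peak of Amotl2 lies at the 3′ side in mESCs and near the start in NIH3T3 cells. In NIH3T3 cells H3K27ac and Ctr9 have separate places within the Axl gene body.

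Yap1 and Tead1, the longest of the 8 genes at 72.6 and 227 kb, were covered by Ctr9 peaks over at most 1.12% of their bodies. At Yap1 (chr9:7931999-8004596, minus strand) the strongest Ctr9 peaks lay past the gene end, 4.86 kb at 3.61-fold in mESCs and 2.65 and 5.04 kb at 4.97-fold in NIH3T3 cells. H3K27ac summited 339 bps inside it at 5.91-fold in mESCs and 932 bps inside it at 12.7-fold in NIH3T3 cells. At Tead1 (chr7:112679318-112906807, plus strand) H3K27ac summited 380 bps inside the gene at 8.11-fold in mESCs and 396 bps inside it at 22.8-fold in NIH3T3 cells. No summit of any list lay between 80 and 81 kb inside Tead1, where the transcripts assigned most of its reads are annotated to begin. Its Ctr9 peak past the gene end was 2.93 kb wide at 6.46-fold in mESCs and 291 bps wide at 4.78-fold in NIH3T3 cells.

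Ctr9 peaks at the 8 genes overlapped H3K27ac at shares whose counting intervals held those of all Ctr9 peaks. In NIH3T3 cells 12 of 43 did, 27.9% (15.3 to 43.7%), against 21.7% of all, and in mESCs 4 of 41 did, 9.76% (2.72 to 23.1%), against 9.30%. Peaks of 1 gene are not independent, so these intervals are too narrow. Of the 12 in NIH3T3 cells, 5 lay at Amotl2, 4 at Cyr61, 2 at Axl and 1 at Yap1. The TEAD word lay within 300 bases centred on 3 of 33 H3K27ac and 4 of 34 Ctr9 summits of NIH3T3 cells at the 6 genes with a promoter entry, against 14.3% and 15.2% of all summits of these lists. It lay at 1 of 10 H3K27ac and 1 of 26 Ctr9 summits in mESCs, against 11.0% and 15.4%. In the short lists it lay at 3 of 5 RNAPII Ser5p summits, against 13.5%, with 2 of the 3 at Amotl2 and 1 at Ajuba, and at 1 of 2 NELFA summits, that of Amotl2, against 10.4%.

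The genes most like 4 of the members were taken as those with the same presence or absence of a peak in all 7 lists and the smallest Euclidean distance in log2(TPM + 1) over the 2 cell types. For Cyr61, out of 361 genes with its pattern, these were Vcan at 5.65 and 155 TPM, Mmp2 at 7.44 and 161 TPM and Cdc42ep3 at 5.53 and 81.9 TPM in mESCs and NIH3T3 cells, at distances of 0.166, 0.465 and 0.760. For Axl, out of 364 genes, the nearest were Gng12, Ehd2 and Hspb8 at distances of 2.26, 2.31 and 3.30, so none of these came close to its levels. The mESC part of the Axl pattern comes only from the 4 summits at the start of Hnrnpul1. Genes without peaks in mESCs were therefore not among the 364. For Ctgf, out of 582 genes, they were Sh3gl1, Xpo5 and Mthfd2 at 0.152, 0.161 and 0.162. For Yap1, out of 1964 genes, they were Sgta, Usp34 and Plcg1 at 0.0135, 0.0468 and 0.0556.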

How the data were processed

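Per the labels and the study's methods, Bowtie2 2.3.5.1 placed the ChIP-seq reads on mm10, alignments in ENCODE blacklist regions were dropped, and MACS2 2.2.6 called peaks in each library. The deposited lists give a score per peak, a fold enrichment as a ratio over local background, and −log10 p and −log10 q values at the summit. The deposited RNA-seq tables hold, for each GENCODE M19 transcript, an estimated count and a TPM that kallisto 0.46.1 made from reads of strand-specific libraries.

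Joins of genes, peaks and promoters used pandas 2.3.3 (Python 3.11.15), intervals came from SciPy 1.17.1, arrays from NumPy 2.4.6 and plots from Matplotlib 3.10.9. Coordinates came from GENCODE M21 and promoters from RefSeq GRCm38.p6. RNA was compared by the highest transcript per gene, with a pseudocount of 1 TPM, among genes with at least 1 TPM in either cell type, and at least 2-fold counted as apart. An overlap was 1 bp. Estimated counts were rounded before exact 95% Clopper-Pearson intervals were made from them, and these cover counting error only. ChIP-seq depth is unknown because the lists hold no read counts. The 3 input libraries were not analysed here. With 1 library per cell type and assay there was no test. Overlap and interval code was tested on simulated data, and 4 of 4 checks passed.

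Named genes were the 8 members, pathway genes past 2-fold with at least 10 TPM in either cell type (at most 12 per list by log2 ratio), the 3 genes nearest in pattern, and genes sharing a region. Members and lists were chosen with earlier results of these data known. The values of 1 gene that this rule names are not reported here.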

Additional observations from a re-analysis of the deposited data

How the results depend on the processing

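No paired analysis was possible because each assay compared here has 1 library per cell type. Of 107 counts recomputed under other settings, 92 stayed within 1.5 times the reported one, and no called ratio changed direction. The 4 genes higher in NIH3T3 cells were the same with summed TPM, a pseudocount of 0.1, no filter or estimated counts scaled to library totals, and 3 of them were past 4-fold, where Amotl2 dropped out. Past 4-fold, 0 members were higher in mESCs. In the same setting the kinase and scaffold list had 4 genes higher in NIH3T3 cells and 1 in mESCs. The coactivator list had 3 and 0, and the list of other targets 11 and 0. Of all genes tested, 8.81% were past 4-fold higher in NIH3T3 cells and 9.46% in mESCs. With summed TPM the log2 ratio of Tead1 was 0.75, in place of 0.20. With only peaks of −log10 q of at least 5, RNAPII Ser5p was left at 2 members with 3 peaks, and in gene bodies without flanks it had 4 peaks. Over gene bodies without flanks, Ctr9 peaks lay at 6 members in NIH3T3 cells and 5 in mESCs. H3K27ac peaks lay there at 8 and 5. At −log10 q of at least 5, Ctr9 was left at 7 members in NIH3T3 cells. The shares of all genes in these peak settings were not computed. Ctr9 summits lay within 500 bps of the gene start at 0 members in mESCs and 0 in NIH3T3 cells, and the Yap1 summit in NIH3T3 cells was lost at −log10 q of at least 5, which left 0. With RefSeq starts, a setting chosen after the data were seen, Ctr9 had 2 members in mESCs and 2 in NIH3T3 cells and RNAPII Ser5p had 2. Depth limits the mESC values of Ankrd1 (2 reads) and Axl (78 reads) most, and a missing peak may lie under the detection limit of its library.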

Other observations

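Transcripts that share the regions of the 8 genes were read from the same tables. Gm17501, the noncoding RNA gene that begins 331 bps before Cyr61 on the other strand, was at 0.807 TPM in mESCs and 23.8 TPM in NIH3T3 cells, so it was higher in the same cell type as Cyr61. Gm15270, which lies antisense over 1667 bps of Ctgf, was at 0.878 and 0.648 TPM. Gm45494, a bidirectional noncoding RNA that begins 234 bps before Yap1, was at 1.76 and 0.812 TPM, and 2310014F06Rik, which overlaps the first 764 bps of Tead1 antisense, was at 0.187 and 0.105 TPM. The libraries were strand-specific, but the strand setting of the counting is not given in the sources used here, so reads of overlapping antisense pairs cannot be told apart.

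Retained-intron transcripts held similar shares of Ajuba in both cell types. Ajuba-202 held 23.5% of the Ajuba reads in mESCs (22.4 to 24.5%) and 25.3% in NIH3T3 cells (23.4 to 27.4%). At Axl they held 10 of 78 reads in mESCs, 12.8% (6.32 to 22.3%), and 527 of 26516 in NIH3T3 cells, 1.99% (1.82 to 2.16%). Scaled for length as TPM, the Axl shares were 47.5% and 15.4%, and the former rests on those 10 reads of a short transcript, Axl-206. Amotl2 transcripts that begin at least 3 kb inside the gene held 15.2% of its reads in mESCs (13.9 to 16.6%) and 26.6% in NIH3T3 cells (25.6 to 27.6%, exact Clopper-Pearson, counting error only). For Ajuba, Axl and Amotl2, as for Tead1, kallisto splits reads shared between transcripts by estimate, which these intervals do not cover.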
